A study of Homo sapiens with 6 samples.

Results

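The genes described here are 39 of the 17064 genes measured in MDA-MB-231 breast cancer cells with and without the kinases MRCKα and MRCKβ. They comprise the transcription factor NRF2 (NFE2L2), its inhibitor KEAP1, and enzymes, carriers and storage proteins of glutathione, thioredoxin, NADPH, iron and detoxification that are known as NRF2 targets. Members were matched by gene symbol and selected on their place in the pathway after the FPKM values of these libraries, and the differences between vector 2, vector 1 and DKO, had been seen. Fold changes and counts over the list are therefore a description, and nothing is read from them as a test. By role there were 6 regulators, 5 genes of iron and haem, 5 of the thioredoxin system, 5 of glutathione, 5 of NADPH supply, 10 of detoxification and 3 export pumps.

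NRF2 is a transcription factor that KEAP1 holds in the cytoplasm and hands to the proteasome. Oxidants and electrophiles modify KEAP1, after which NRF2 accumulates, pairs with a small MAF protein and binds the antioxidant response element in the promoters and enhancers of its targets. Control of NRF2 is therefore largely at the level of the protein, and the mRNAs of its targets, such as NQO1, GCLM and the ferritin chains, are commonly used as a readout of the pathway.

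MDA-MB-231 is an established triple-negative line from a metastatic site of a mammary gland tumour. All cells were stably transduced with the lentiviral plasmid lentiCRISPRv2 and used as pools without picking of clones. The control cells carried the empty plasmid and came from separate transductions, here vector 1 and vector 2. The other groups carried guides against CDC42BPA (MRCKα KO, 1 library), CDC42BPB (MRCKβ KO, 1 library) or both genes (DKO, 2 libraries made with different guide sets, here DKO 1 and DKO 2). Which guides made which library is not given in the sources used here. The methods name selection with puromycin or blasticidin after transduction, without saying which was used for which library. RNA came from subconfluent cultures with no further treatment named. Only DKO and vector had 2 libraries each. Errors and p-values for them measure the spread between these libraries, which may be partly technical.

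Between 10349898 and 10657857 expected counts were assigned to genes per library. FPKM, which scales reads to the length of the transcript and the total of the library, was used for levels and can be compared between genes. The line's own markers were high in each library, with VIM between 1532 and 2052 FPKM and KRT18 between 153 and 189 FPKM, while ESR1 and PGR stayed below 1 FPKM and ERBB2 between 13.2 and 16.2 FPKM. Summed marker levels reached at most 2.17 FPKM for leukocytes, 1.92 FPKM for endothelium and 9.45 FPKM for fibroblasts. CDC42BPA RNA was found at 23.3 to 36.4 FPKM and CDC42BPB RNA at 23.4 to 30.3 FPKM, knockouts included. These levels do not check the labels, since small edits need not remove the RNA. Vector 2 stood apart from the other 5 libraries in the genes described here, so fold changes and medians against vector are given with and without it. In bulk RNA, fewer cells that express a gene and less RNA per cell cannot be told apart.

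The core of the antioxidant response element reads TGACNNNGC, where N is any base. RefSeq promoter windows of GRCh38.p14, which reach from 250 bases before to 50 bases after the start of a transcript, were searched on both strands, and 29 of the 39 genes had a window. The core was found in 10 genes, among them GCLM, KEAP1, PIR, ME1 and GSTP1, and in 28.2% of the members' 39 windows. Over all 35116 windows the share was 13.3%. The 5 sites below are shown because they carry the same letters within the core as another site of the set, while their genes differ in how they varied between libraries. Capitals mark the core, each run is written 5′ to 3′ along the strand on which the core reads TGACNNNGC, and 10 bases stand on each side. The site of GCLM lies at chr1:93909446-93909474 on the plus strand, that of KEAP1 at chr19:10502784-10502812 on the plus strand, that of PIR at chrX:15493289-15493317 on the plus strand, that of ME1 at chr6:83431170-83431198 on the minus strand and that of GSTP1 at chr11:67583736-67583764 on the plus strand.
GCLM: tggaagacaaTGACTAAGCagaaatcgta
KEAP1: caggtcaccaTGACTAAGCagagccgggc
PIR: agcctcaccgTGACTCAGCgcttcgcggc
ME1: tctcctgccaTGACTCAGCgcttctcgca
GSTP1: gccggcgccgTGACTCAGCactggggcgg

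The sites shown for GCLM and KEAP1 share the core TGACTAAGC. KEAP1 and ME1 each held a further core that is not shown, TGACACGGC in KEAP1 and TGACGGTGC in ME1. Vector 2 held 2.56 times as much GCLM RNA as vector 1 by FPKM, but only 0.746 times as much KEAP1 RNA. PIR, ME1 and GSTP1 share the core TGACTCAGC, which also contains TGACTCA, a form of the AP-1 motif. That motif, as TGACTCA or TGAGTCA, was found in 10.3% of the members' windows and 4.95% of all windows. Their FPKM ratio of vector 2 to vector 1 was 2.45 for PIR, 1.02 for ME1 and 0.984 for GSTP1. Because the sites were picked for genes that differ in this way, nothing follows from them about how the core relates to the ratio. The motif is a match of letters and says nothing about binding, and distal enhancers were not searched.

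The most abundant member was FTL, which encodes the light chain of ferritin, the protein shell that stores iron. It ranked 8 among all genes by mean FPKM. FTL spans 48965301 to 48966878 of chromosome 19, plus strand (GENCODE v29, GRCh38). FTH1, the heavy chain, which oxidises the iron on entry, ranked 44 and spans 61959718 to 61967660 of chromosome 11, minus strand. At the other end ABCC2, ALDH3A1, AKR1B10 and AKR1C2 stayed below 1 FPKM in all libraries except for 1.16 FPKM of AKR1B10 in vector 2. The members together took 0.557% to 0.614% of all counts in the 5 libraries other than vector 2, and 1.06% in vector 2.

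**Figure D1:**
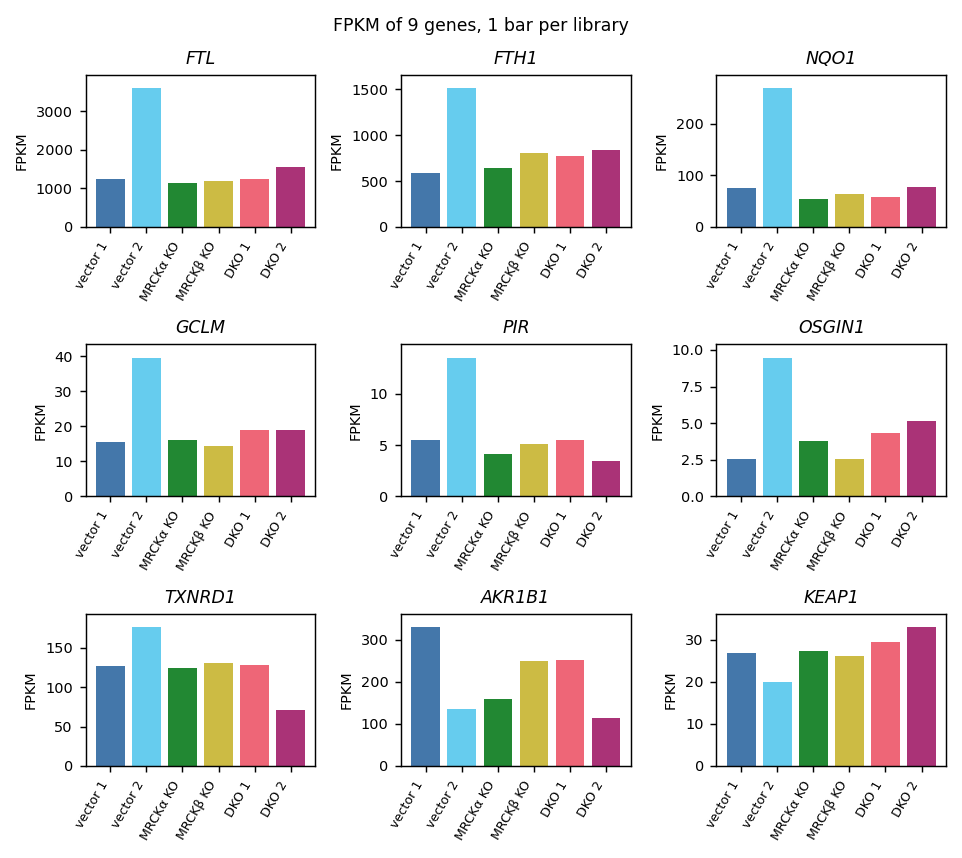
FPKM of 9 members, with 1 panel per gene, 1 bar per library and a linear axis from 0. FTL, FTH1, NQO1, GCLM, PIR and OSGIN1 were highest in vector 2, TXNRD1 and AKR1B1 were lowest in DKO 2, and KEAP1 was lowest in vector 2.

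The difference between the control libraries comes first, because every comparison with vector rests on it. With 1 library on each side it has no test. Of the 37 members that passed the filter on low counts, 6 were at least 2-fold higher in vector 2 than in vector 1, against 2.43% of the 13123 genes that passed. They were OSGIN1, NQO1, FTL, GCLM, FTH1 and PIR. AKR1B1 was the 1 member at least 2-fold lower, against 3.33% of all genes. At the lesser limit of 1.5-fold, 14 members were higher, against 7.12% of all genes, and 26 were higher by any amount, against 49.2%. The median log2 ratio of vector 2 to vector 1 was 0.42 over the members and -0.01 over all tested genes. In 25 of 37 members vector 2 was the highest of all 6 libraries, against 20.5% of all genes. PIR, FTL, GCLM and NQO1 were at least 2-fold higher in vector 2 than in each of the other 5 libraries, against 0.229% of all genes.

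**Figure D2:**
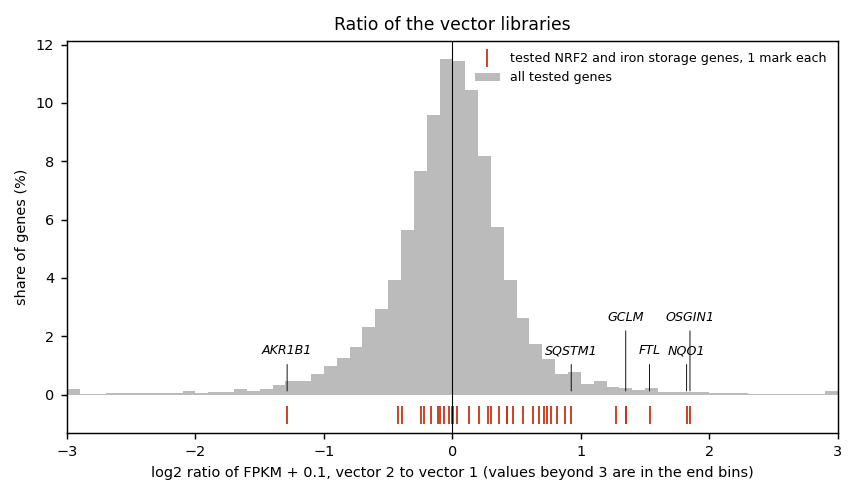
Histogram of the log2 ratio of FPKM + 0.1 between vector 2 and vector 1 over the 13123 tested genes (grey, share of genes in percent per bin of 0.1), with 1 red mark below the axis for each of the 37 tested members. Most members lie to the right of 0 and AKR1B1 lies apart on the left.

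Abundant genes as a whole had a smaller median shift. Over the 11 members with a mean of at least 100 FPKM the median log2 ratio of vector 2 to vector 1 was 0.71. It was 0.10 over the 410 genes at that level with transcripts under 2000 bases, 0.08 over the 272 longer ones and 0.26 over the 79 genes of ribosomal proteins. The sets of 410 and 272 genes include the members. These medians give a net shift, not a spread. Single ratios ran from -4.88 to 7.93 in the 410 genes, from -1.86 to 0.93 in the 272 and from -1.29 to 1.53 in the 11 members. A batch, an RNA quality value or a date is not given in the sources used here, and what set vector 2 apart was not tested.

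**Figure D3:**
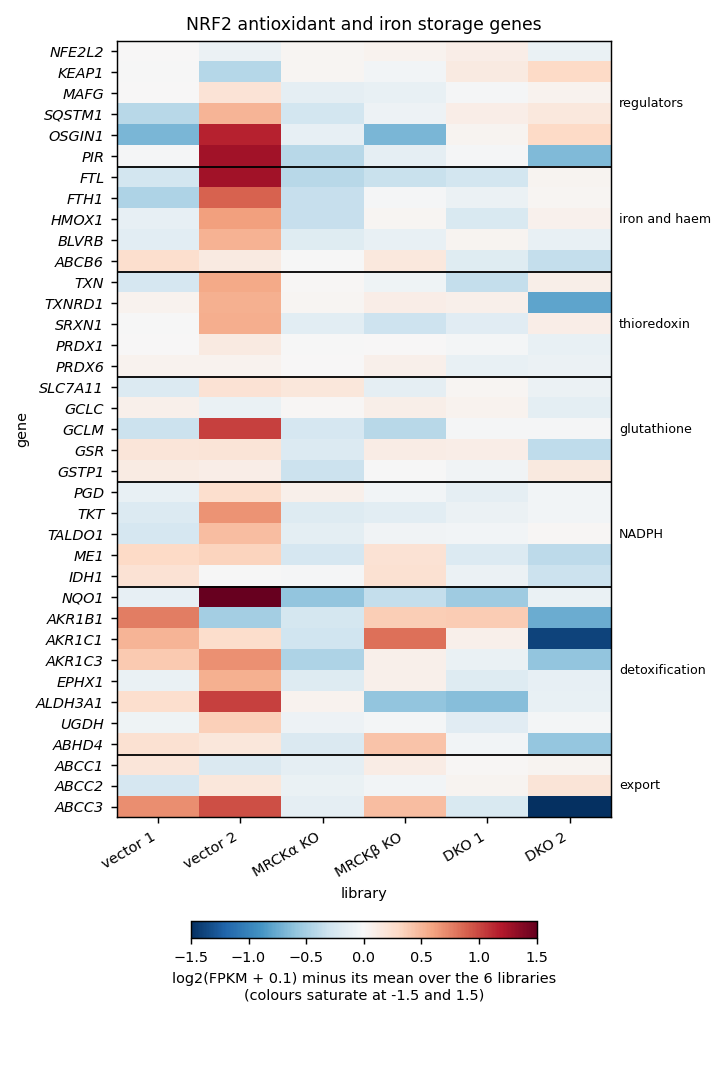
Colour map of log2(FPKM + 0.1) minus the gene's mean over the 6 libraries, for the 37 tested members (rows, ordered by role) and the 6 libraries (columns). Red is above the mean and blue below it, and the vector 2 column is red in most rows while the DKO 2 column is darkest blue for ABCC3 and AKR1C1.

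Among the regulators, NFE2L2 itself was nearly level. Its FPKM was 35.2 in vector 1, 32.9 in vector 2, 37.4 in DKO 1, 32.5 in DKO 2, 35.8 after loss of MRCKα and 36.4 after loss of MRCKβ. The highest library was 1.15 times the lowest, and the DKO and vector ranges overlapped. In DKO its log2 fold change was 0.02 (standard error 0.13) with both vector libraries and -0.03 without vector 2.

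KEAP1, the substrate adaptor that presents NRF2 for ubiquitination, was lower in vector 2, not higher. Its FPKM was 26.8 in vector 1, 19.98 in vector 2, 29.4 in DKO 1, 33.0 in DKO 2, 27.4 after loss of MRCKα and 26.1 after loss of MRCKβ. Vector 2 was lowest, and both DKO libraries lay above both vector libraries. KEAP1 was the 1 member with that order among 37, against 17.0% of all tested genes. In DKO its log2 fold change was 0.40 (standard error 0.17), and 0.21 without vector 2.

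SQSTM1 encodes p62, an autophagy receptor that binds KEAP1. It measured 92.5 FPKM in vector 1, 176 in vector 2, 132 in DKO 1, 138 in DKO 2, 102 after loss of MRCKα and 117 after loss of MRCKβ. Both DKO libraries fell between the vector libraries. Its log2 fold change in DKO was -0.00 (standard error 0.28) with both and 0.52 without vector 2.

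OSGIN1, an oxidative stress induced growth inhibitor, had the highest vector ratio of the tested members. Its FPKM was 2.55 in vector 1, 9.45 in vector 2, 4.31 in DKO 1, 5.17 in DKO 2, 3.81 after loss of MRCKα and 2.55 after loss of MRCKβ. By counts, vector 2 held 3.71 times as much as vector 1 with a 95% interval of 2.72 to 5.13, which is exact and, like the other intervals here, covers counting error only. The sign of the change in DKO turned with the control used, from -0.36 (standard error 0.56) on the log2 scale to 0.88 without vector 2.

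PIR encodes pirin, an iron-binding nuclear protein. It stood at 5.52 FPKM in vector 1, 13.5 in vector 2, 5.50 in DKO 1, 3.49 in DKO 2, 4.15 after loss of MRCKα and 5.07 after loss of MRCKβ. Both DKO libraries were below both vector libraries, but DKO 1 was close to vector 1. Its log2 fold change in DKO was -1.10 (standard error 0.47), against -0.30 without vector 2. MAFG, a small MAF partner of NRF2, ranged from 15.9 to 20.3 FPKM.

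The ferritin chains showed the same picture at far higher levels. FTL measured 1241 FPKM in vector 1, 3596 in vector 2, 1249 in DKO 1, 1551 in DKO 2, 1132 after loss of MRCKα and 1197 after loss of MRCKβ. It took 0.311% of all counts in vector 2, and between 0.0980% and 0.134% in the other 5 libraries. The mean FPKM was 2418 ± 1665 (SD, n = 2) in vector and 1400.1 ± 214 (SD, n = 2) in DKO. The 5 libraries other than vector 2 lay within 1.37-fold of each other, and vector 2 was 2.32 times the next of them. Against vector, the DKO log2 fold change was -0.81 (standard error 0.45), and 0.16 without vector 2.

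FTH1 measured 591 FPKM in vector 1, 1509 in vector 2, 769.6 in DKO 1, 833 in DKO 2, 641 after loss of MRCKα and 807 after loss of MRCKβ. Vector 1 was the lowest library and vector 2 the highest, with all 4 knockout libraries between them. In DKO the log2 fold change was -0.41 (standard error 0.39), and 0.42 without vector 2. Of the 50-base windows of FTH1 transcripts, 48.8% also occur in transcripts of other genes, mostly BEST1 and ferritin pseudogenes, and 18.3% of those of FTL occur in its pseudogenes. Reads of these genes can be split by the counting program, so their levels are uncertain to that extent. The windows were read from GENCODE v29, whereas the authors counted on RefSeq transcripts. By the same measure 38.9% of the windows of SQSTM1, 21.0% of PRDX1, 17.1% of NFE2L2 and 15.9% of NQO1 are shared, and 23 of the 39 members share under 5%.

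HMOX1, which opens the haem ring and frees its iron, was low throughout. Its FPKM was 4.24 in vector 1, 7.15 in vector 2, 3.96 in DKO 1, 4.84 in DKO 2, 3.63 after loss of MRCKα and 4.72 after loss of MRCKβ. The libraries other than vector 2 were within 1.33-fold of each other. DKO gave a log2 fold change of -0.39 (standard error 0.34), and 0.03 without vector 2. BLVRB, a biliverdin reductase, ranged from 19.6 to 31.9 FPKM, highest in vector 2, and ABCB6, a porphyrin carrier, from 1.91 to 2.97 FPKM. ABCB6 shares 89.6% of its windows with another annotated gene.

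In the thioredoxin system, TXNRD1 stood out for DKO 2. This gene encodes thioredoxin reductase, which passes electrons from NADPH to thioredoxin. It measured 127 FPKM in vector 1, 176 in vector 2, 128 in DKO 1, 70.7 in DKO 2, 124 after loss of MRCKα and 131 after loss of MRCKβ. Vector 1, both single knockouts and DKO 1 were close to each other, vector 2 was above them and DKO 2 was 1.82-fold below DKO 1. The log2 fold change in DKO was -0.63 (standard error 0.30), -0.36 without vector 2 and -0.27 without DKO 2.

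TXN, thioredoxin itself, ranged from 309 FPKM in DKO 1 to 586 FPKM in vector 2. SRXN1, which repairs overoxidised peroxiredoxins, ranged from 20.3 to 36.9 FPKM, also highest in vector 2, but shares 84.7% of its windows with another annotated gene. The peroxiredoxins, which reduce peroxides, varied least in this group. PRDX1 stayed between 274 and 324 FPKM and PRDX6 between 108 and 123 FPKM, and for both genes the DKO libraries were below the vector libraries by a small margin.

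Glutathione synthesis split by subunit. GCLM, the modifier subunit of glutamate-cysteine ligase, measured 15.5 FPKM in vector 1, 39.6 in vector 2, 19.1 in DKO 1, 19.1 in DKO 2, 16.2 after loss of MRCKα and 14.4 after loss of MRCKβ. GCLC, the catalytic subunit, ranged only from 8.02 to 9.45 FPKM and was not highest in vector 2. By counts the ratio of vector 2 to vector 1 was 2.57 for GCLM (95% interval 2.37 to 2.78) and 0.899 for GCLC (95% interval 0.767 to 1.05). The subunits of this enzyme thus differed between the control libraries by more than counting error. For GCLM, the log2 fold change in DKO was -0.56 (standard error 0.40), and 0.28 without vector 2.

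SLC7A11, the light chain of the cystine-glutamate exchanger that supplies cysteine for glutathione, varied little. Its FPKM was 25.6 in vector 1, 34.4 in vector 2, 30 in DKO 1, 27.7 in DKO 2, 33.2 after loss of MRCKα and 26.8 after loss of MRCKβ. Both DKO libraries were between the vector libraries. DKO gave a log2 fold change of -0.08 (standard error 0.16), and 0.11 without vector 2. GSR, glutathione reductase, ranged from 10 FPKM in DKO 2 to 14.9 FPKM in vector 2, and GSTP1, a glutathione transferase, from 90.5 FPKM in MRCKα KO to 125 FPKM in DKO 2.

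For NADPH supply, the pentose phosphate enzymes and malic enzyme differed. TKT and TALDO1, transketolase and transaldolase, were highest in vector 2 at 247 and 152 FPKM, and stayed within 134 to 149.7 FPKM and 93.0 to 112 FPKM elsewhere. PGD, phosphogluconate dehydrogenase, ranged from 49.3 to 64.5 FPKM, again highest in vector 2. ME1, the cytosolic malic enzyme, measured 14.6 FPKM in vector 1, 14.95 in vector 2, 10.2 in DKO 1, 9.0 in DKO 2, 9.87 after loss of MRCKα and 13.7 after loss of MRCKβ. Here the vector libraries were close together, and all 4 knockout libraries were below both of them, MRCKβ KO by the smallest margin. The log2 fold change of ME1 in DKO was -0.66 (standard error 0.14) and -0.63 without vector 2. IDH1, cytosolic isocitrate dehydrogenase, ranged from 26.7 FPKM in DKO 2 to 39.2 FPKM in MRCKβ KO.

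Among the tested detoxification genes, NQO1 had the highest FPKM ratio of vector 2 to vector 1, at 3.54. This quinone reductase measured 75.7 FPKM in vector 1, 268 in vector 2, 57.1 in DKO 1, 77.1 in DKO 2, 54.8 after loss of MRCKα and 64.5 after loss of MRCKβ. Vector 2 was 3.48 times the next library, and the DKO libraries lay on either side of vector 1. Its log2 fold change in DKO was -1.38 (standard error 0.54) with both controls and -0.19 without vector 2.

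Among the aldo-keto reductases, which reduce aldehydes and ketones, AKR1B1 followed another order. AKR1B1, aldose reductase, measured 329.6 FPKM in vector 1, 135 in vector 2, 251 in DKO 1, 115 in DKO 2, 160.0 after loss of MRCKα and 249.6 after loss of MRCKβ. It was 2.44-fold lower in vector 2 than in vector 1 and 2.18-fold lower in DKO 2 than in DKO 1. The DKO and vector ranges overlapped, and the sign of the log2 fold change in DKO depended on the control library, at -0.36 (standard error 0.49) with both, 0.42 without vector 1 and -0.86 without vector 2.

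AKR1C3, a ketosteroid and prostaglandin reductase, measured 24.2 FPKM in vector 1, 29.8 in vector 2, 17.2 in DKO 1, 12.1 in DKO 2, 13.3 after loss of MRCKα and 19.4 after loss of MRCKβ. All 4 knockout libraries were below both vector libraries. DKO gave a log2 fold change of -0.90 (standard error 0.22), -0.74 without vector 2 and -0.67 without DKO 2.

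Its neighbour AKR1C1, a hydroxysteroid dehydrogenase, measured 7.83 FPKM in vector 1, 6.6 in vector 2, 5.78 in DKO 1, 2.03 in DKO 2, 4.44 after loss of MRCKα and 9.74 after loss of MRCKβ. DKO 2 was 2.85-fold lower than DKO 1, and MRCKβ KO was the highest library. The log2 fold change in DKO was -0.72 (standard error 0.50), also -0.72 without vector 2, and -0.12 without DKO 2. AKR1C1, AKR1C2 and AKR1C3 lie side by side on chromosome 10 between 4963253 and 5107686, and 27.0% of the windows of AKR1C1, 48.1% of AKR1C2 and 9.55% of AKR1C3 occur in another gene, chiefly in each other.

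AKR1C2 and AKR1B10 did not pass the filter on low counts. AKR1C2 had between 1 and 16 counts per library, highest in vector 1, and AKR1B10 between 1 and 18, highest in vector 2. ALDH3A1, an aldehyde dehydrogenase, passed with 5 to 19 counts. Ratios of these genes are poorly resolved at this depth, the 95% interval of the count ratio of vector 2 to vector 1 for AKR1B10 running from 1.80 to 32.7.

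ABHD4, an abhydrolase that acts on lysophospholipids, measured 32.4 FPKM in vector 1, 31.0 in vector 2, 26.8 in DKO 1, 18.4 in DKO 2, 23.7 after loss of MRCKα and 37.1 after loss of MRCKβ. The vector libraries were close, with DKO and MRCKα KO below and MRCKβ KO above both. Against vector, the DKO log2 fold change was -0.51 (standard error 0.20), -0.54 without vector 2 and -0.26 without DKO 2. EPHX1, the microsomal epoxide hydrolase, ranged from 23.8 to 39.6 FPKM, and UGDH, which makes UDP-glucuronate, from 19.1 to 27.6 FPKM, both highest in vector 2.

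Of the export pumps, ABCC3 was lowest in DKO 2. This pump of organic anions and conjugates measured 1.04 FPKM in vector 1, 1.28 in vector 2, 0.50 in DKO 1, 0.11 in DKO 2, 0.54 after loss of MRCKα and 0.87 after loss of MRCKβ, on 46, 54, 27, 6, 27 and 45 counts. All 4 knockout libraries were below both vector libraries. The log2 fold change in DKO was -1.61 (standard error 0.66), -1.46 without vector 2, -3.07 without DKO 1 and -0.90 without DKO 2. With limma on log2(FPKM + 1) it was -0.74. ABCC1, which exports glutathione conjugates, ranged from 15.0 FPKM in vector 2 to 19.7 FPKM in vector 1, and ABCC2 from 0.34 to 0.50 FPKM.

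DKO was the 1 comparison with replicates on both sides, and no member passed its test. With edgeR's quasi-likelihood test and Benjamini-Hochberg adjustment over 13123 genes, 0 of 37 members had an adjusted p under 0.05, against 0.00% of all genes. DESeq2 and limma on FPKM also gave 0 members. At an unadjusted p under 0.05, edgeR gave 5 of 37 members, against 2.39% of all genes. DESeq2 gave 6 of 37, against 203 of 13123 genes, and limma gave 5 of 35, against 352 of 12562 genes. The 5 from edgeR were ME1, AKR1C3, ABHD4, NQO1 and ABCC3, all lower in DKO, against 1.02% of all genes on the lower side. The adjusted p of each was 1.00, and 2 DKO libraries of 2 were below the vector mean for each. For NQO1 that mean of 172 FPKM rested on vector 2 at 268 FPKM, and DKO 2 at 77.1 FPKM was above vector 1 at 75.7 FPKM. For ME1, AKR1C3, ABHD4 and ABCC3 both DKO libraries were below both vector libraries. Without vector 2, edgeR gave 7 of the 38 members tested then at an unadjusted p under 0.05, against 805 of 13517 genes.

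**Figure D4:**
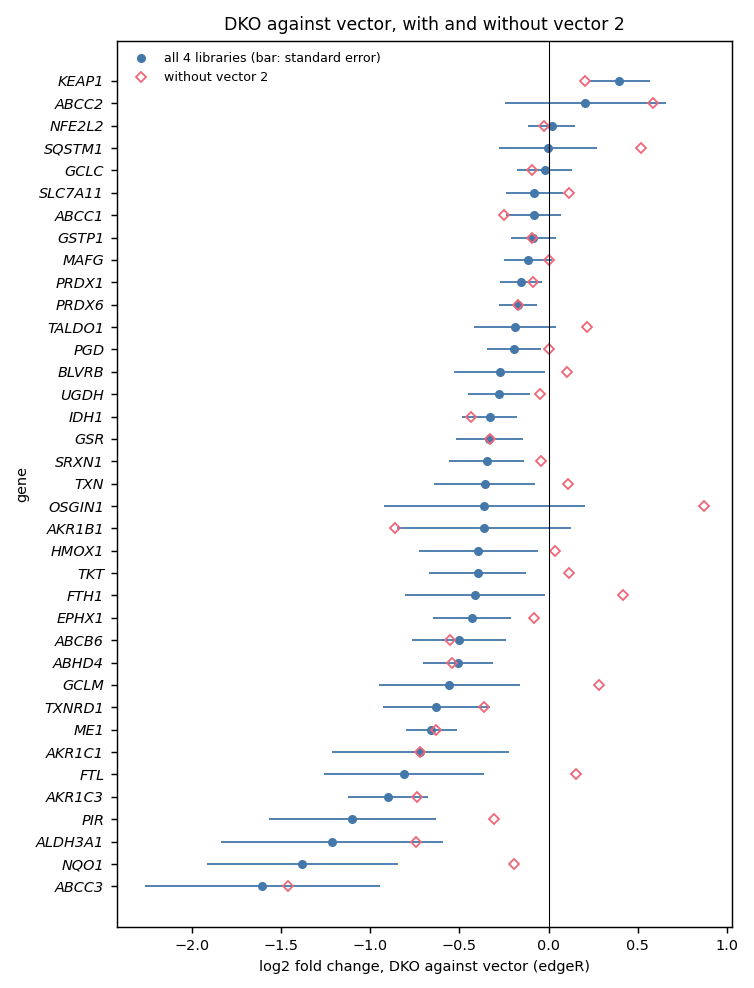
Log2 fold change of DKO against vector from edgeR for the 37 tested members, ordered by value. Filled circles use all 4 libraries with a bar of 1 standard error on each side, and open diamonds leave out vector 2; FTL, FTH1, GCLM, OSGIN1 and SQSTM1 move to the right of 0, while ME1, AKR1C3 and ABHD4 stay near -0.5 or lower.

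Read over the list, 34 of 37 members had a log2 fold change below 0 in DKO, against 50.7% of all genes, and the median was -0.36 against -0.00 over all genes. Without vector 2, 22 of 37 members were below 0, against 6657 of 13517 genes. The median was then -0.08 over the members and 0.00 over all genes. Without vector 1 the median was -0.50. The negative median of the list thus rested largely on vector 2.

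By role, the medians with and without vector 2 are given as a description, and differences between roles were not tested. The median log2 fold change in DKO went from -0.41 to 0.11 for iron and haem, from -0.35 to -0.09 for thioredoxin and from -0.33 to 0.00 for NADPH. The median of the 8 tested detoxification genes was -0.61 with both controls and -0.63 without vector 2, with 8 of 8 below 0 each time, but single genes moved in both directions. NQO1 went from -1.38 to -0.19, EPHX1 from -0.43 to -0.08 and UGDH from -0.28 to -0.05, while AKR1B1 went from -0.36 to -0.86. Without DKO 2 their median was -0.40, and without vector 1 it was -0.72, each with 7 of 8 below 0. For regulators the median went from -0.06 to 0.11, for glutathione from -0.08 to -0.09 and for export from -0.08 to -0.25.

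By levels, both DKO libraries were below both vector libraries for 13 of 37 members, against 12.3% of all genes. Apart from PIR these were ABCB6, PRDX1, PRDX6, GSR, ME1, IDH1, AKR1C1, AKR1C3, EPHX1, ALDH3A1, ABHD4 and ABCC3. FTL, FTH1, NQO1, GCLM and OSGIN1 are not among them.

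Between the DKO libraries, AKR1B1, AKR1C1 and ABCC3 were at least 2-fold lower in DKO 2, against 2.21% of all genes, and 0 members were as much higher, against 1.20%. DKO 2 was the lowest of the 6 libraries for 14 of 37 members, against 15.6% of all genes. The guide sets differ between these libraries and cannot be told apart from other differences between them.

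MRCKα KO and MRCKβ KO were sequenced as 1 library each, so nothing can be tested for them, and they are set against the same vector libraries as DKO. In MRCKα KO the median log2 ratio of FPKM + 0.1 to the vector mean was -0.40 over 37 members and 0.01 over all tested genes, with 33 members below 0, against 47.6% of all genes. Against vector 1 alone the median was -0.10, and against vector 2 alone -0.55. The members with at least 10 counts on average that lay farthest from the vector mean were NQO1 at -1.65, PIR at -1.18, FTL at -1.09, AKR1C3 at -1.02 and ABCC3 at -0.98. To vector 1 alone these were -0.46, -0.40, -0.13, -0.86 and -0.83. ABCC3 is low enough for the pseudocount to matter, and with FPKM + 1 its ratio to the vector mean was -0.49. MRCKα KO was below both vector libraries for 22 of 37 members, against 27.0% of all genes, and above both for NFE2L2 and KEAP1, against 32.4%.

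In MRCKβ KO the median log2 ratio to the vector mean was -0.19 over 37 members, with 28 below 0, against 49.7% of all genes. It was 0.02 against vector 1 alone and -0.39 against vector 2 alone. By the same limit on counts, the farthest members were NQO1 at -1.41, OSGIN1 at -1.20, FTL at -1.01, GCLM at -0.93 and PIR at -0.89. To vector 1 alone these were -0.23, 0.00, -0.05, -0.10 and -0.12. MRCKβ KO was below both vector libraries for 12 members, against 29.1% of all genes, and above both for NFE2L2, PRDX6, GCLC, IDH1, AKR1C1 and ABHD4, against 30.1%.

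The study's methods leave out genes more than 2-fold apart between replicates before applying a 2-fold limit to mean FPKM. That step removed 9 of the 39 members in vector, namely OSGIN1, PIR, FTL, FTH1, GCLM, NQO1, AKR1B1, AKR1B10 and AKR1C2, and 3 in DKO, namely AKR1B1, AKR1C1 and ABCC3. Of the 30 members left in MRCKα KO, AKR1C3 and ABCC3 were past the limit on the lower side, against 2.47% of all genes. ALDH3A1 was past it in MRCKβ KO (1 of 30, against 1.84%) and in DKO (1 of 28, against 0.759%). This gene lay between 0.19 and 0.82 FPKM. The paper's results also mention leaving out poorly expressed genes, with no limit stated in the sources used here. At a mean of at least 1 FPKM in either group, 0 members were past the 2-fold limit in MRCKβ KO and in DKO. On the higher side there were 0 members in each comparison, against 1.91% of all genes for MRCKα KO, 1.65% for MRCKβ KO and 1.00% for DKO. The members with the widest gap between the controls were therefore outside what this rule could report.

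A further 58 genes of the pathway, written down beside the members, gave a different background. Of these, 55 passed the filter on low counts. Their median log2 ratio of vector 2 to vector 1 was -0.04 and their median log2 fold change in DKO -0.01. TRIM16L was at least 2-fold higher in vector 2 than in each of the other 5 libraries. TRIM16L measured 6.90 FPKM in vector 1 and 25.2 in vector 2, and 5.32 to 7.56 in the knockout libraries. In DKO, 0 of 55 passed the test with edgeR, and 6 (10.9%) had an unadjusted p under 0.05, against 2.39% of all genes, with SOD2, MAFK, MAFF and SESN2 higher and STEAP3 and TRIM16L lower.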

How the data were processed

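Single-end RNA sequencing of 6 MDA-MB-231 libraries was done and processed by BGI. The authors deposited expected counts, which are estimated reads per gene and not normalized, and FPKM values computed by BGI and rounded to 2 decimals. The submitters' processing notes name HISAT, Bowtie2, RSEM and GRCh38.p11, and tool versions are not given in the sources used here. Libraries were grouped by the labels' genotype alone. For DKO against vector, expected counts were rounded, filtered with filterByExpr, normalized by TMM and tested with edgeR 4.0.16 (quasi-likelihood, Benjamini-Hochberg over 13123 genes, threshold 0.05) in R 4.3.3. The edgeR fit was tested on simulated data. Single knockouts were described by log2 ratios of FPKM + 0.1. Intervals and limits cover counting error only, since reads carry no molecular identifiers, and 0 counts allow up to 3. Libraries held 10349898 to 10657857 counts. Alternatives were DESeq2 1.42.0, limma 3.58.1 on log2 FPKM, other normalizations and filters, other pseudocounts, a replicate block and each replicate left out. Members and lists were chosen with earlier results of these data known. Members named in full are 10 set by name, the 10 farthest from 0 in DKO and the 5 farthest in each single knockout with at least 10 counts on average, and those at least 2-fold apart between replicates. Windows of 50 bases shared between GENCODE v29 transcripts took the place of a planned comparison of proteins, which was not made here.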

Additional observations from a re-analysis of the deposited data

How the results depend on the processing

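No member passed the adjusted threshold in DKO under any alternative run. Over all genes the count was 0, and it was 4 with DESeq2, 5 with the replicate block and 0 to 5 when a replicate was left out. The labels tie the replicate numbers of vector and DKO to no shared batch, so the libraries were not treated as pairs. Deviations of same-numbered libraries correlated at r = 0.30 over 13123 genes, and with 2 pairs this does not settle whether they are paired. With the replicate block 16 members and 796 of 13123 genes had an unadjusted p under 0.05, against 5 members and 313 genes without it, and the median log2 fold change of the members was -0.33. That median was -0.36 in the fit reported, -0.36 to -0.30 under the other settings, and -0.54 to -0.084 with a replicate left out, the value nearest 0 being without vector 2 (38 members then passed the filter on low counts). In MRCKα KO the median log2 ratio of -0.40 ran from -0.55 to -0.10 with a vector library left out, and in MRCKβ KO that of -0.19 ran from -0.39 to 0.02. Under the alternatives, counts past the 2-fold rule have no share over all genes beside them and are a description only. The members that enter the rule also change with the setting. Members past it numbered 2 of 30 in MRCKα KO, 1 of 30 with a pseudocount of 0.1 and 0 of 30 with a pseudocount of 1. They numbered 6 of 39 with no exclusion between replicates and 2 to 10 of 39 with a vector library left out. In MRCKβ KO the 1 of 30 became 0 of 30 with a pseudocount of 1 and 4 of 39 with no exclusion. It became 0 of 28 at a mean of at least 1 FPKM and 3 to 7 of 39 with a vector library left out. In DKO the 1 of 28 became 0 of 28, 6 of 39 and 0 of 26 under the first 3 of those settings. With a vector library left out it became 1 to 7 of 36. The cause was not tested. Depth limits ALDH3A1, AKR1B10 and AKR1C2, which had under 10 counts on average.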
